A study of Homo sapiens with 12 samples.

Results

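TGF-beta, BMP and mesenchymal genes were examined in total RNA-seq of A549 cells, an established human lung adenocarcinoma line, after depletion of YTHDC1. The group holds 48 genes chosen by name for their place in these pathways (ligands, latency proteins, antagonists, receptors, SMADs and their brakes, target genes and factors of the epithelial-mesenchymal transition). All 48 were found among the 22564 genes of the authors' deposited comparison, each as 1 row. Cells received small interfering RNA (siRNA) against YTHDC1 (siYTHDC1, 6 libraries) or a scrambled control (siSCR, 6 libraries), at 40 nM for 48 to 72 h, with no other treatment or engineered allele named by the labels for either group. Every library is from the same cell line, and the labels do not tie libraries to separate cultures, so a p-value here measures the spread between libraries, which may be technical.

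Ligands of the TGF-beta superfamily bind pairs of type I and type II serine/threonine kinase receptors on the cell surface. TGF-beta and activin receptors phosphorylate SMAD2 and SMAD3, while BMP receptors phosphorylate SMAD1 and SMAD5, and each set enters the nucleus with SMAD4. TGF-beta is secreted in a latent form, bound to its own propeptide and mostly to a latent TGF-beta binding protein (LTBP) that anchors it in the matrix. In epithelial tumour cells the pathway is known for its part in the epithelial-mesenchymal transition (EMT), in which cells gain matrix and cytoskeletal proteins of mesenchymal cells. ID1, ID2 and ID3 are classical BMP targets, and SMAD6 and SMAD7 feed back on the receptors. YTHDC1 is a nuclear protein that binds N6-methyladenosine in RNA.

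Fold changes are given as log2 of siYTHDC1 over siSCR, so that a positive value is higher after depletion, with the standard error (SE) of the authors' fit. A gene was called where it passed the limits used by the study, an adjusted p under 0.001 together with a fold change beyond 0.5 in size on that scale. The level of a gene is its mean count, the normalized count averaged by the authors over all 12 libraries. Values per library were not analysed here. Group levels are therefore those that the mean count and the fold change imply for 6 libraries against 6, and carry no SD. The target itself was lower, at a log2 change of -1.82 (SE 0.11, adjusted p = 5.29e-59) and a normalized count of 361 in siSCR and 102 in siYTHDC1. The epithelial markers KRT8 (mean count 27600), KRT7 and KRT18 were high, CDH1 (1011) and KRT19 (673) were lower in count and EPCAM was weak (58.4), and 0 of these 6 were called. Of 4 genes that A549 cells express strongly 1 was lower, the aldehyde dehydrogenase ALDH1A1. Of the other cell types' markers, 4 of 5 leukocyte, 2 of 3 endothelial and 2 of 6 fibroblast genes were not among the genes tested, PTPRC, PECAM1, COL1A2 and DCN among them. The summed normalized count of the fibroblast markers tested was 245 in siSCR and 174 in siYTHDC1, nearly all of it COL1A1 (log2 fold change -0.60, called lower), which epithelial tumour cells can also express. The rest of those tested went the other way at low counts and were not called. They were LUM (mean count 10.2, log2 fold change 1.11, SE 0.42), PDGFRA (3.38, 0.38, SE 0.72) and PDGFRB (2.13, 0.19, SE 0.82). What part COL1A1 had in the results below was not tested.

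After YTHDC1 depletion 9 members were higher, 6 were lower and 33 were not called. The higher members were the BMP antagonist GREM1, the ligand TGFB2, the co-receptor TGFBR3, the BMP-responsive ID1, ID2 and ID3, the feedback inhibitor SMAD6, and the matrix genes FN1 and THBS1. The lower members were the latency proteins LTBP2, LTBP3 and LTBP4, the type I receptor TGFBR1, the pathway brake PMEPA1 and the matrix gene TGFBI. Because these are bulk cultures, fewer cells of a kind and less RNA per cell cannot be told apart in any of these values. The members called higher are 18.8% of the 48, beside 3.05% of all genes, and those called lower are 12.5%, beside 3.71% of all genes. Since 44 members had a mean count of at least 100, where small changes are easier to call, genes of that level are the closer background: there 20.5% of the members were higher and 13.6% lower, beside 3.27% and 4.40% of 10410 genes. The members were listed with results of these libraries known, so these shares describe the list and test nothing. The median log2 fold change was 0.18 over the members, beside -0.0023 over all genes and 0.011 over genes with a mean count of at least 100. Above 0 lay 31 of 48 members (64.6%), beside 49.7% of all genes and 52.1% of genes at that level.

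**Figure D1:**
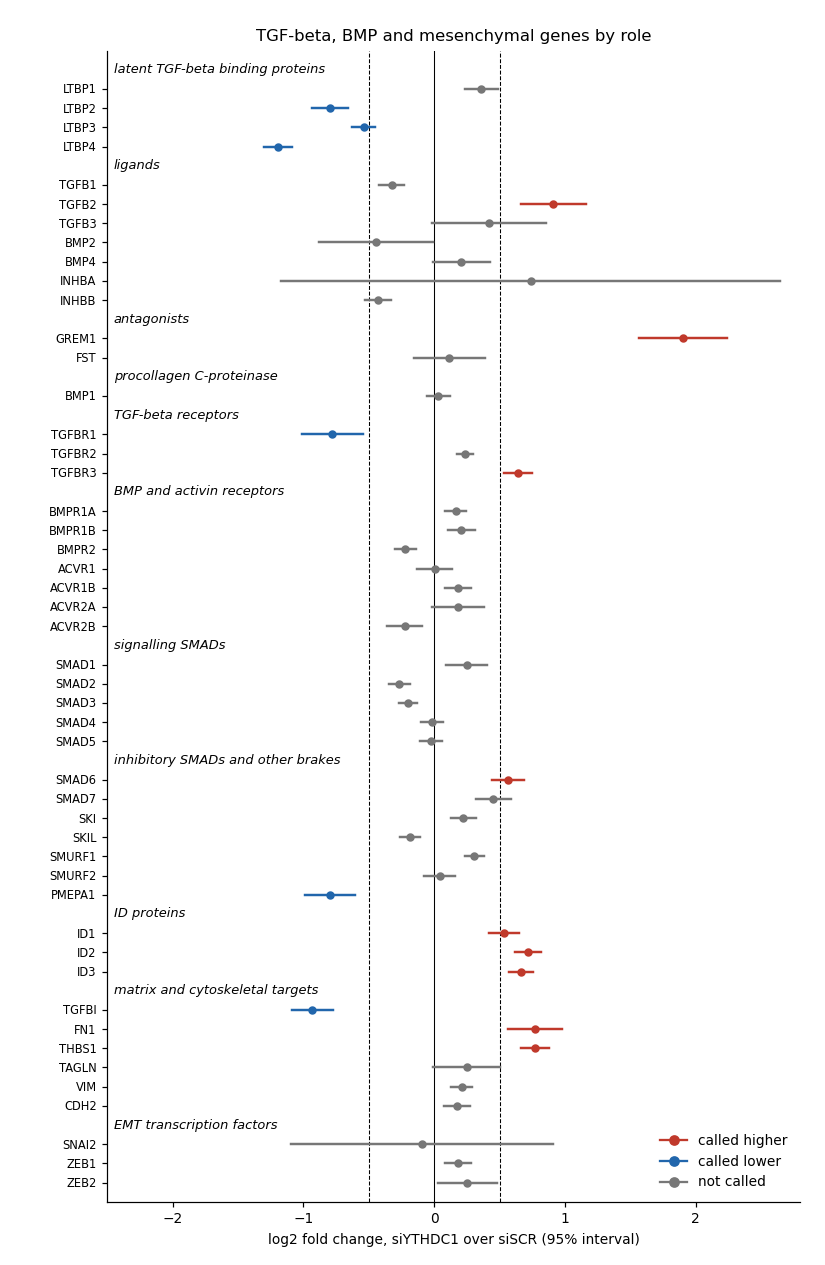
Log2 fold change of siYTHDC1 over siSCR (x axis, points) with its 95% interval (bars) for the 48 members, grouped by role, with dashed lines at the limit of 0.5 on either side of 0. The 9 members called higher (red) lie between 0.53 and 1.90 and the 6 called lower (blue) between -1.20 and -0.54, while the wide bars of INHBA and SNAI2 belong to the least abundant members.

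Of the 4 latency proteins, 3 fell. LTBP4 (chromosome 19, 41098789 to 41135723, plus strand, GRCh37) fell by 1.20 log2 units (SE 0.05, adjusted p = 2.85e-107), from a normalized count of 1359 in siSCR to 594 in siYTHDC1. It was the largest fall of any member. LTBP2 (chromosome 14, 74964886 to 75079081, minus strand) fell by 0.80 (SE 0.07, adjusted p = 4.13e-28), from 604 to 347. LTBP3 (chromosome 11, 65306030 to 65326401, minus strand) fell by 0.54 (SE 0.04, adjusted p = 1.64e-31), from 2054 to 1412. LTBP2 differs from its relatives in that it does not bind latent TGF-beta, and is known as a partner of elastic fibres. LTBP1, the best known carrier of latent TGF-beta, went the other way without being called (log2 fold change 0.36, SE 0.06, adjusted p = 3.13e-07), from 440 to 565. Taking the SEs of a pair of genes as independent, LTBP1 exceeded LTBP4 by 1.56 log2 units (95% interval 1.39 to 1.72) and LTBP3 by 0.90 (0.75 to 1.05). Even the 3 lower members differed in size, LTBP4 lying below LTBP3 by 0.66 (0.52 to 0.79) and below LTBP2 by 0.40 (0.23 to 0.57). Levels were compared roughly between genes by the normalized count per kilobase of exon. Over all libraries, it ranked LTBP3 (150) and LTBP4 (120) above LTBP1 (68.4) and LTBP2 (52.4). Exon lengths here and below come from a later annotation (GENCODE release 44) than the one the authors counted with, so close ranks are uncertain. Stranded libraries were made, but the sources used here do not say that reads were counted by strand, so reads of opposite genes may be mixed.

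The 3 TGF-beta ligands split. TGFB2 (chromosome 1, 218518678 to 218617961, plus strand) rose by 0.91 log2 units (SE 0.13, adjusted p = 2.52e-11), from a normalized count of 1257 to 2365. TGFB1 (chromosome 19, 41807492 to 41859827, minus strand) had a log2 change of -0.33 (SE 0.05, adjusted p = 1.32e-10), from 1848 to 1475, under the limit of 0.5. The difference between TGFB1 and TGFB2 was -1.24 log2 units (95% interval -1.51 to -0.97). Per kilobase of exon, the mean level of TGFB1 was 509 normalized counts and that of TGFB2 299. TGFB3 was weakly expressed, with a mean count of 34.4 and a log2 change of 0.42 (SE 0.22, adjusted p = 0.148). TGFB1 shares its locus with CCDC97 (log2 fold change 0.42, SE 0.05), TMEM91 and HNRNPUL1 (mean count 7464), all on the opposite strand. Reads of TGFB1 and these genes may thus be mixed, whereas the gene that overlaps TGFB2 had a mean count of 16.6.

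No BMP or activin ligand among the members was called. BMP4, at 65.7 normalized counts per kilobase of exon beside 10.1 for BMP2, had a log2 change of 0.21 (SE 0.11, adjusted p = 0.155), and BMP2, at a mean count of 36.0, one of -0.44 (SE 0.22, adjusted p = 0.121). INHBB, which encodes a subunit of activins and inhibins, lay just under the limit at -0.43 (SE 0.05, adjusted p = 6.97e-16), from a normalized count of 775 to 576. Its relative INHBA was barely detected (mean count 1.86), and its interval of -1.17 to 2.65 spans large changes both ways. BMP1 is a protease that processes procollagens and not a signalling ligand in spite of its name. It had a log2 change of 0.03 (SE 0.05, adjusted p = 0.664), with a 95% interval of -0.06 to 0.12.

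GREM1 was the member with the largest change. The gene (chromosome 15, 33010205 to 33037307, plus strand) encodes gremlin 1, a secreted protein that binds BMP2 and BMP4 and keeps them from their receptors. Its log2 fold change was 1.90 (SE 0.17, adjusted p = 2.94e-26), from a normalized count of 239 in siSCR to 894 in siYTHDC1, an increase of 274% (95% interval 195% to 373%). A long non-coding RNA on the opposite strand of the GREM1 locus, at a mean count of 8.98, rose by 1.88 (SE 0.44, adjusted p = 0.000133). If reads were not counted by strand, those of this RNA and of GREM1 cannot be told apart. Follistatin (FST), which binds activins, was not called (log2 fold change 0.12, SE 0.14, adjusted p = 0.592).

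**Figure D2:**
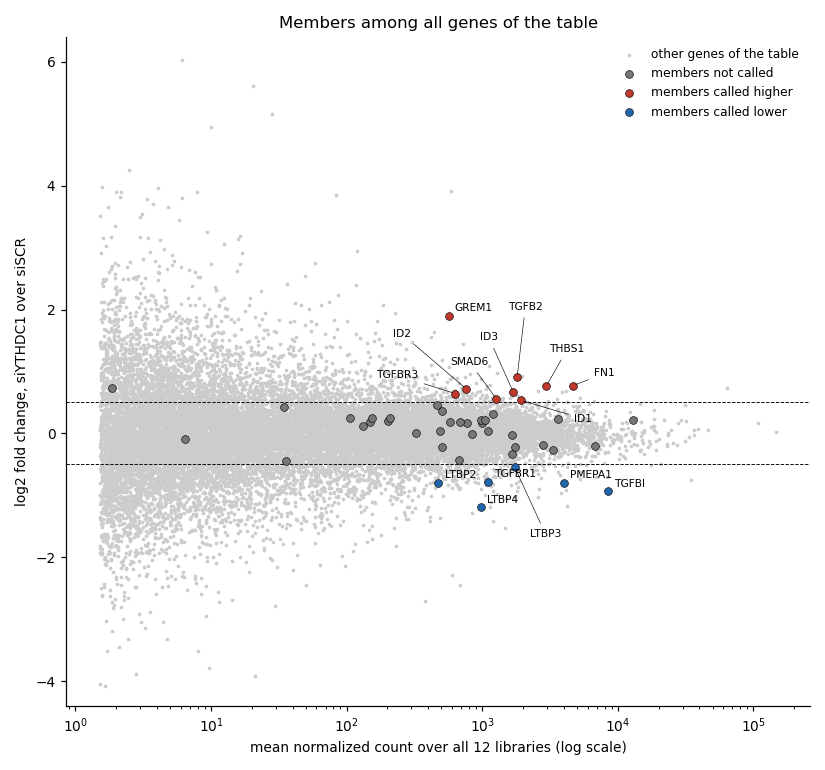
The 22564 genes tested, by mean count (x axis, log scale) and log2 fold change (y axis, positive where higher in siYTHDC1), with the 48 members as large points in red (called higher), blue (called lower) or dark grey (not called). GREM1 stands highest of the members at 1.90 and LTBP4 lowest at -1.20, and all 15 called members have a mean count above 100.

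The receptors of TGF-beta also split, with a fall of the type I receptor. TGFBR1 (chromosome 9, 101866320 to 101916474, plus strand) fell by 0.78 log2 units (SE 0.12, adjusted p = 9.27e-10), from a normalized count of 1399 to 814, a change of -41.8% (95% interval -50.5% to -31.6%). TGFBR3 (chromosome 1, 92145900 to 92371892, minus strand), the co-receptor betaglycan that presents TGF-beta 2 to the kinases, rose by 0.64 (SE 0.05, adjusted p = 1.33e-29), from 496 to 774. TGFBR2, the type II kinase, was not called (log2 fold change 0.24, SE 0.03, adjusted p = 1.51e-11). Per kilobase of exon TGFBR2 was the most abundant receptor of the list (529), followed over all libraries by BMPR1B (149), BMPR2 (139) and TGFBR1 (138). TGFBR1 lay below TGFBR2 by 1.02 log2 units (95% interval 0.77 to 1.26) and below TGFBR3 by 1.42 (1.17 to 1.68).

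All 7 BMP and activin receptors were left uncalled, and for each of them the whole 95% interval lay within 0.5 of 0. The type I receptors BMPR1A (0.17, SE 0.04) and BMPR1B (0.21, SE 0.05) had log2 fold changes that differed by -0.04 (95% interval -0.17 to 0.09). The type II receptor BMPR2 had -0.22 (SE 0.04, adjusted p = 6.83e-07). ACVR1, a type I receptor of BMPs and activins, was the flattest of the members at 0.0039 (SE 0.07). ACVR1B, the activin type I receptor, had 0.18 (SE 0.05). The activin type II receptors ACVR2A (0.18, SE 0.10) and ACVR2B (-0.23, SE 0.07) differed by 0.41 (0.17 to 0.65), both within the limit.

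None of the 5 signalling SMADs was called. SMAD3 was the most abundant of them, at 682 normalized counts per kilobase of exon, with a log2 change of -0.20 (SE 0.03, adjusted p = 1.10e-07). SMAD2, its partner below the TGF-beta and activin receptors, had -0.26 (SE 0.04, adjusted p = 1.04e-09). The BMP SMADs had 0.25 (SMAD1, SE 0.08) and -0.03 (SMAD5, SE 0.04), and the common partner SMAD4 -0.02 (SE 0.04, adjusted p = 0.831). Each of these 5 intervals lay within 0.5 of 0, so a change of that size in the total transcript of any signalling SMAD lies outside its interval. Phosphorylation, through which SMADs are switched on, is not measured by RNA-seq.

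Among the brakes of the pathway, SMAD6 rose and PMEPA1 fell. SMAD6 (chromosome 15, 66994574 to 67075187, plus strand), an inhibitory SMAD that acts mainly on BMP signals, rose by 0.56 log2 units (SE 0.06, adjusted p = 8.48e-18), from a normalized count of 1025 to 1512. SMAD7, which acts on TGF-beta and BMP receptors alike, lay under the limit at 0.45 (SE 0.07, adjusted p = 2.64e-10). The difference between the pair was 0.11 with a 95% interval of -0.07 to 0.29, so a difference between them was not shown, although SMAD6 alone was called. PMEPA1 (chromosome 20, 56223448 to 56286592, minus strand), a TGF-beta target whose product holds SMAD2 and SMAD3 away from the receptor, fell by 0.79 (SE 0.10, adjusted p = 7.53e-15), from 5100 to 2939. The ubiquitin ligases SMURF1 (0.31, SE 0.04) and SMURF2 (0.04, SE 0.06) and the SMAD co-repressors SKI (0.22, SE 0.05) and SKIL (-0.18, SE 0.04) were not called. SKI exceeded its relative SKIL by 0.41 on the log2 scale (0.29 to 0.53).

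All 3 ID genes rose. ID proteins are helix-loop-helix factors that lack a DNA-binding region and hold other such factors off DNA. ID2 (chromosome 2, 8818975 to 8824591, plus strand) rose by 0.72 log2 units (SE 0.05, adjusted p = 2.03e-44), from a normalized count of 577 to 949. ID3 (chromosome 1, 23884417 to 23885992, minus strand) rose by 0.66 (SE 0.05, adjusted p = 1.28e-43), from 1315 to 2082. ID1 (chromosome 20, 30193086 to 30194318, plus strand) rose by 0.53 (SE 0.06, adjusted p = 8.51e-19), from 1575 to 2280. The differences among them were small, ID1 lying below ID2 by 0.19 (95% interval 0.04 to 0.33), while the interval of ID1 minus ID3 (-0.27 to 0.02) and that of ID2 minus ID3 (-0.08 to 0.19) held 0. ID1 (1563 per kilobase of exon) and ID3 (1135) were the second and the third of all members by level, after VIM. A non-coding RNA that overlaps ID2 on the opposite strand, at a mean count of 56.9, rose by 1.20 (SE 0.18, adjusted p = 5.31e-10), and its reads could be mixed with those of ID2. The mean count of ID2 itself was 763.

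The matrix and cytoskeletal targets did not move as one. FN1 (chromosome 2, 216225163 to 216300796, minus strand), which encodes fibronectin, rose by 0.77 log2 units (SE 0.10, adjusted p = 2.81e-12), from a normalized count of 3447 to 5885. THBS1 (chromosome 15, 39873280 to 39891667, plus strand), the gene of thrombospondin 1, a matrix protein that can release TGF-beta from latency, rose by 0.77 (SE 0.05, adjusted p = 1.66e-42), from 2203 to 3753. TGFBI (chromosome 5, 135364677 to 135399507, plus strand), a matrix protein named for its induction by TGF-beta, fell by 0.93 (SE 0.08, adjusted p = 3.34e-29), from 11138 to 5834. With PMEPA1, TGFBI is thus a classical TGF-beta target that was lower, while FN1 and THBS1, targets too, were higher. The mesenchymal cytoskeletal genes were not called. VIM (vimentin), the most abundant member at 2499 normalized counts per kilobase of exon, had a log2 change of 0.21 (SE 0.04, adjusted p = 1.19e-06). The interval of TAGLN (transgelin), 0.25 with an SE of 0.13, reached from -0.01 to 0.51. CDH2 (N-cadherin) had 0.17 (SE 0.05, adjusted p = 0.00266).

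The EMT transcription factors in the list were not called. ZEB1 had a log2 change of 0.18 (SE 0.05, adjusted p = 0.00168) and ZEB2, at a mean count of 155, 0.25 (SE 0.12, adjusted p = 0.0798). SNAI2 was barely expressed (mean count 6.46), with an interval of -1.09 to 0.91 in which a change of the size called elsewhere would go unseen. The antisense transcripts ZEB1-AS1 (0.09, SE 0.18), VIM-AS1 (0.18, SE 0.10) and ACVR2B-AS1 (0.25, SE 0.35) were not called either.

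**Figure D3:**
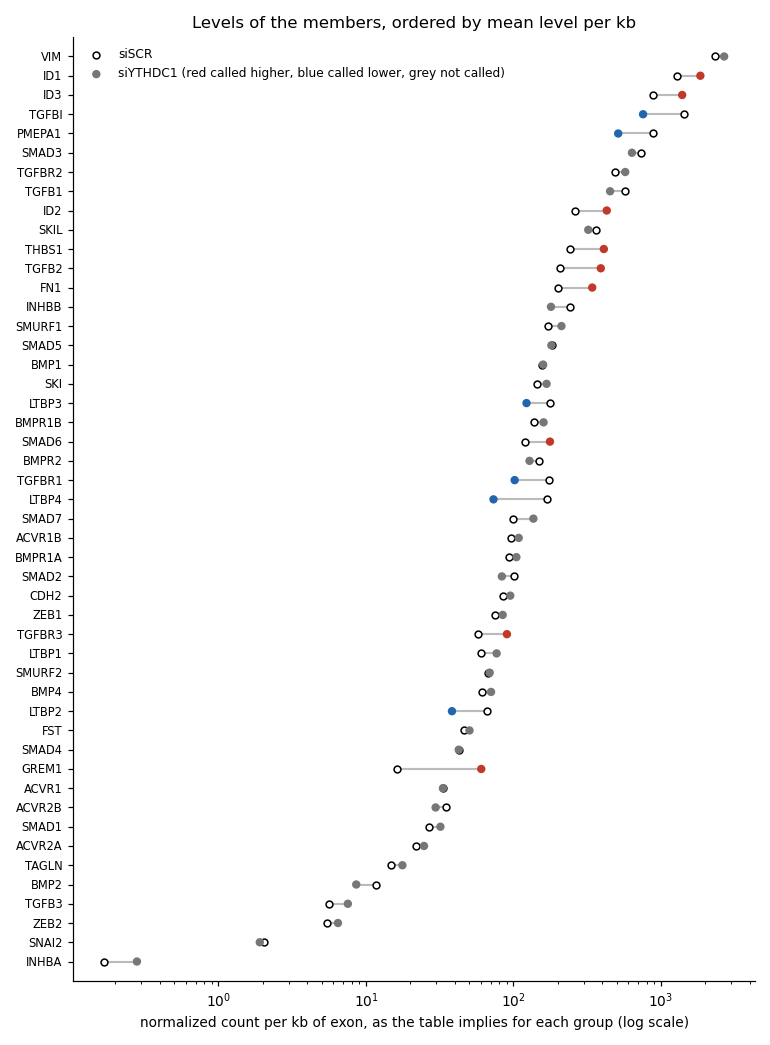
Normalized count per kilobase of exon (x axis, log scale) that the deposited mean and fold change imply for siSCR (open points) and siYTHDC1 (filled points, red where called higher and blue where called lower), with the 48 members ordered by their mean level. Levels run from VIM (2499 per kilobase over all libraries) to INHBA (0.224), and GREM1 and LTBP4 show the longest connecting lines among members of middle level.

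Members that were not called could mostly be bounded. Of these 33 members 26 had a 95% interval that lay wholly within 0.5 of 0. The other 7 were TGFB3, BMP2, INHBA, TAGLN and SNAI2, whose intervals were wide, and INHBB and SMAD7, which lay close to the limit. Of the 33, 14 had an adjusted p under 0.001 with a log2 fold change under 0.5 in size, 8 higher and 6 lower. Among all 22564 genes, 2061 were higher and 2040 lower at that adjusted p with no fold limit, beside 689 and 836 with it. These counts show only that smaller differences also occurred among other genes, and not whether they were as frequent there. Neither their share nor that of intervals within 0.5 of 0 was counted for genes of like level. Within families, in 17 of 25 pairs of relatives the 95% interval of the difference left out 0. In 11 of those 17 pairs the relatives had opposite signs. Pairs of other genes were not counted in this way, and some genes are in several pairs, so these counts describe the list only. Of all genes with a mean count of at least 100, 52.1% lay above 0, so opposite signs can be frequent in any pairs.

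Genes of the same pathways outside the 48 were read in the same way. From further lists of ligands, antagonists, receptors, signalling proteins, latency factors, targets, EMT and epithelial genes, 95 of 122 were tested, of which 7 were higher (7.37%), 5 lower (5.26%) and 83 not called, beside 3.05% and 3.71% of all genes. Their median fold change was 0.01 on the log2 scale. Of the 59 with a mean count of at least 100, 5.08% were higher and 3.39% lower, near the 3.27% and 4.40% of all genes at that level. Of those called at a mean count of 100 or more, ITGB8, the integrin subunit that with ITGAV frees TGF-beta from latency, rose by 1.13 log2 units (SE 0.13, adjusted p = 4.16e-17), and the hyaluronan synthase HAS2 rose by 0.62 (SE 0.08, adjusted p = 1.93e-13). LEMD3, an inner nuclear membrane protein that holds SMADs inactive, fell by 0.88 (SE 0.06, adjusted p = 1.50e-51). The TGF-beta superfamily hormone gene AMH fell by 1.02 (SE 0.09, adjusted p = 1.70e-29).

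Other called genes of these lists had a mean count under 100. The ligand BMP6 (0.99, SE 0.14), the fourth ID gene ID4 (1.28, SE 0.33) and the EMT factor TWIST2 (0.56, SE 0.14) were higher. The BMP modulators BMPER (-0.89, SE 0.14) and CHRDL2 (-1.99, SE 0.48) and the EMT factor SNAI1 (-0.89, SE 0.18) were lower. ID4 thus had the direction of its relatives ID1, ID2 and ID3. Of 10 epithelial counterparts tested, CDH1, KRT8 and TJP1 among them, 0 were called, and CDH1 (E-cadherin) had a log2 change of 0.18 (SE 0.12, adjusted p = 0.284).

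The SE of some called members was large for their level. The SE of a fold change falls as the count rises, and for each gene it was set beside the median SE of the 200 genes nearest in level. TGFB2 (3.30 times that median), GREM1 (3.06), FN1 (3.06), PMEPA1 (2.92), TGFBR1 (2.68) and TGFBI (2.36) exceeded it by more than 2 times, as did 1.10% of all genes with a mean count of at least 100. Those 6 were all among the 15 called members. In the authors' model a larger SE at like level reflects more scatter between libraries of a group, and which libraries differed was not analysed here. For ID2 (0.956), TGFBR3 (1.01), LTBP4 (1.12) and LTBP3 (1.12) the SE was that of their neighbours. When the test statistic was divided by its robust spread over all genes, FN1, PMEPA1, SMAD6, TGFB2 and TGFBR1 were no longer called. These are not simply the members with a large SE: SMAD6 had 1.43 times the median of its neighbours, and GREM1 and TGFBI stayed called. That spread also takes in genes that changed.

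**Figure D4:**
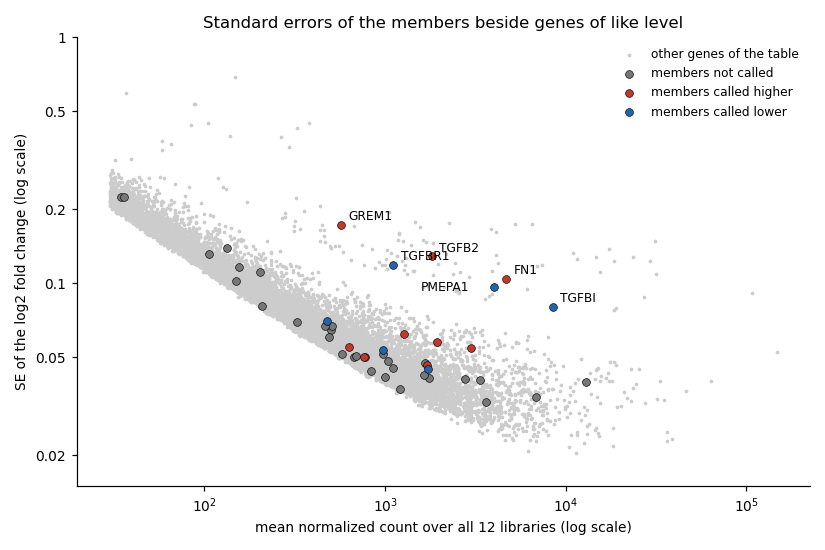
SE of the log2 fold change (y axis, log scale) by mean count (x axis, log scale) for genes with a mean count of at least 30, with the members as large points coloured by call. GREM1, TGFB2, TGFBR1, FN1, PMEPA1 and TGFBI, which are labelled, stand above the band of grey points, by 2.36 to 3.30 times the median of the genes nearest in level.

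The siRNA sequences were set beside the members, because a guide can also lower transcripts that pair with its seed, bases 2 to 8. The study lists 3 siRNAs against YTHDC1 besides the scrambled control, and the labels do not say which of them these libraries received. They are shown here 5′ to 3′ as listed, without the overhangs, because their seeds were searched in the 3′ UTRs of the members. Capitals mark the 7 bases that form the guide's seed or, where the sense strand is listed, the bases that the seed pairs with (for the scrambled control the listed strand was taken as the sense strand).
siSCR: cagucgcguuuGCGACUGg
siRNA2_YTHDC1: cgaguaugcaaAUAUUGAa
siRNA4_YTHDC1: cagagauaaacgaGUACAUGa
siRNA-YTHDC1 (3′ UTR): uUACUACUuguaaacacacac

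Among 9823 genes with a mean count of at least 100 and an annotated 3′ UTR, 9.86% held the seed site of siRNA4_YTHDC1. Of genes with that site 9.91% were called lower, against 3.64% of genes without it, and the shares called higher were 3.20% and 3.06%. For 3′ UTRs of up to 1465 bases, the median length, 9.86% of genes with the site and 3.69% without it were called lower, and for longer 3′ UTRs 9.92% and 3.57%. For the other siRNAs against YTHDC1 the share called lower was not raised. It was 3.93% with the site and 4.32% without for siRNA2_YTHDC1, and 3.33% and 4.36% for the siRNA to the 3′ UTR. For the scrambled control it was 3.39% and 4.27%, but a transcript lowered in siSCR would read as higher here. Called higher were 5.08% of the 177 genes with the control's site and 3.04% of those without. These shares were 3.55% and 2.98% for siRNA2_YTHDC1, and 4.48% and 2.92% for the siRNA to the 3′ UTR. This comparison was added after the values of the members had been seen, and genes are not replicates, so no test was made.

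**Figure D5:**
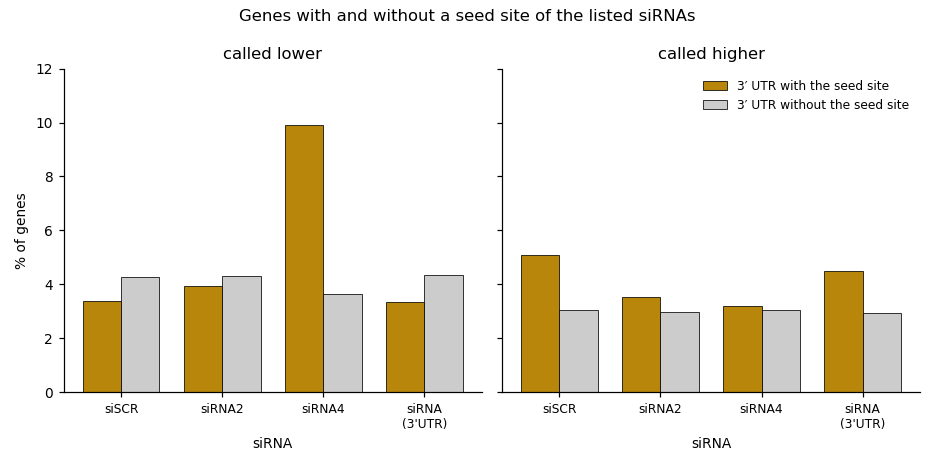
Percentage of genes (y axis) called lower (left) and higher (right) among genes whose 3′ UTR holds the seed site of each listed siRNA (gold) or does not (grey), for 9823 genes with a mean count of at least 100. For siRNA4_YTHDC1 9.91% of genes with the site were called lower, against 3.64% without it, while the other pairs of bars lie between 2.92% and 5.08%.

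In the members the site of siRNA4_YTHDC1 occurred in 9 of 48 3′ UTRs, in 2 of the 6 lower members (TGFBR1 and TGFBI), in 0 of the 9 higher ones, and in LTBP1, INHBA, ACVR2A, SMAD2, SMAD3, SKIL and ZEB2, which were not called. Among all 9823 genes, those called lower were 96 with the site and 322 without, and those called higher 31 and 271. The median 3′ UTR of the members had 2622 bases, and 16.8% of genes with 3′ UTRs over 1465 bases held the site. The member counts are few and test nothing. The sites in TGFBR1 (chr9:101914795-101914824, plus strand, GRCh37) and TGFBI (chr5:135399012-135399041, plus strand, GRCh37) are shown with their flanks, 30 bases each, with the 7 paired bases in capitals.
TGFBR1 site: gcgattttgtaGTACATGcatgagttacct
TGFBI site: cacactttaatGTACATGggccgcaccata

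The TGFBR1 3′ UTR of 4887 bases also held 2 sites of siRNA2_YTHDC1, and that of LTBP2 held 1, whereas LTBP3, LTBP4 and PMEPA1 held no site of any of these siRNAs. What part a seed match had in the fall of TGFBR1 and TGFBI was not tested. These genes were also among those with a large SE for their level, but so were TGFB2, GREM1, FN1 and PMEPA1, which held no site of siRNA4_YTHDC1. The uncalled members with that site had SEs of 1.00 to 1.15 times the median of their neighbours.

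The members were also compared by what their promoters hold. In the 250 bases upstream of the annotated start (GRCh37, GENCODE release 44 mapped back), words known from binding sites of SMADs and partner factors were searched on both strands. CAGAC, the core of the SMAD-binding element, was in the window of 13 of 48 members (27.1%) and of 34.9% of 14014 protein-coding promoters, and among called members in GREM1, ID3, TGFB2, TGFBR1 and THBS1. The GC-rich SMAD word GGCGCC was in 29.2% of members and 26.8% of promoters. The SMAD palindrome GTCTAGAC was in 0.107% of promoters and in 1 member, SMAD6. The AP-1 word TGANTCA was in 2.08% of members and 3.75% of promoters, the E-box CACCTG of ZEB and SNAI factors in 8.33% and 16.1%, and CATTCC, the core of TEAD sites, in 8.33% and 9.01%. The windows of ID1 and ID2 held none of the SMAD words.

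The windows of GREM1 (chr15:33009955-33010204, plus strand), ID3 (chr1:23885993-23886242, minus strand), SMAD6 (chr15:66994324-66994573, plus strand), TGFB2 (chr1:218518428-218518677, plus strand) and THBS1 (chr15:39873030-39873279, plus strand) are printed 5′ to 3′ on the gene's strand, as the higher members that hold CAGAC, GTCTAGAC or CATTCC in this window, with those words or their reverse complements in capitals.
GREM1: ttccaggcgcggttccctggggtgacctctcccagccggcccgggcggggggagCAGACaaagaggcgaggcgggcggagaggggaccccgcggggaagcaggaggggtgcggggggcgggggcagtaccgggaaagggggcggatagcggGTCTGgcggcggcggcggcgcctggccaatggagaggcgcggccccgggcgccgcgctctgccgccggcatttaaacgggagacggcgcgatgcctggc
ID3: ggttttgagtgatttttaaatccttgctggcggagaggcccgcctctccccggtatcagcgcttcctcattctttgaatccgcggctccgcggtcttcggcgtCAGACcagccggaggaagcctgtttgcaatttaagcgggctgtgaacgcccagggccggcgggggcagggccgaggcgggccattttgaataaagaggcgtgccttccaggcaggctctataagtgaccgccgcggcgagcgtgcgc
SMAD6: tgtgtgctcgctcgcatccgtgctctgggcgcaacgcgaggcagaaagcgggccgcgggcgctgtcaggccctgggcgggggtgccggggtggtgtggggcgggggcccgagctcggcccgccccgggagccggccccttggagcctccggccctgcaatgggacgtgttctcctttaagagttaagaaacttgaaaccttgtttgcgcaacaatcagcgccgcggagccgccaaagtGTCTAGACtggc
TGFB2: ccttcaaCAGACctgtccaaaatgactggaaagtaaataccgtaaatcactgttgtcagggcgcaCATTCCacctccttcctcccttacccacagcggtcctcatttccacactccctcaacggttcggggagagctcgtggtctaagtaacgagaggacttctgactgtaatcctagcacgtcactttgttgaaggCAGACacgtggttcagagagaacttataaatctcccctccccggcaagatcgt
THBS1: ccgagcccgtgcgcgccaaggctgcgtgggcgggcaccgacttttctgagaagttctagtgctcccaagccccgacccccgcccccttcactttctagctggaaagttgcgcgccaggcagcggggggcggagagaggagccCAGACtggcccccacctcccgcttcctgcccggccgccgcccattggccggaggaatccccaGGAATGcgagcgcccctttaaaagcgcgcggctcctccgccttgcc

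GREM1 held 2 CAGAC words, 1 of them in reverse complement, TGFB2 held 2 CAGAC words and 1 CATTCC word, and THBS1 held 1 of each, its CATTCC in reverse complement. A word in these windows is a match of letters and not a bound site, and known BMP-responsive elements of the ID genes can lie further upstream than 250 bases.

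In structure, the higher members had fewer exons by median than the lower ones. The 9 higher members had a median of 4 exons in the reference transcript and the 6 lower ones a median of 22.5, beside 9 for the 33 uncalled members and 10 for all protein-coding genes with a mean count of at least 100. The median GC content of the transcript was 45.7% in the higher members and 55.7% in the lower ones, beside 47.4% for those genes, with LTBP3 (67.7%) and LTBP4 (67.2%) the highest of the 48. Words of the form GGACT, a frequent form of the motif in which adenosines are methylated, had a median density of 0.823 per kilobase of transcript in the higher members, 0.863 in the lower ones and 0.908 in those genes. With 9 and 6 genes, among them families of like structure such as the ID and LTBP genes, these medians are a description.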

How the data were processed

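Total RNA of 12 A549 libraries, in the groups siYTHDC1 and siSCR given by the labels, had been depleted of ribosomal RNA and made into stranded libraries. Alignment (STAR, to hg19), counting per gene (HTSeq) and the test (DESeq2, with a term for sequencing batch) were done by the authors, per the labels and the study's methods. Which library belongs to which batch is not given in the sources used here. Only the finished table of that comparison was analysed, so every fold change, SE and p-value of a gene is the authors' own result and not an independent estimate, and depth per library is unknown. Its signal column, as the authors deposited it, holds normalized counts averaged over all libraries. The deposited fold change and SE are on the log2 scale. The Wald statistic is a score the authors deposited, equal to the fold change over its SE within 9.14e-05. The p-value and adjusted p-value are the deposited ones, and the latter equals a Benjamini-Hochberg adjustment over the 22564 genes.

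Python 3.11.15 with numpy 2.4.6, pandas 2.3.3, scipy 1.17.1 and matplotlib 3.10.9 was used to join the genes to the annotation of GRCh37 (GENCODE release 44 mapped back, 96.6% of gene IDs matched), compute 95% normal intervals, differences between relatives and implied group levels, and repeat the calls under alternatives. The implied levels leave out the batch term. The calling step was run on simulated fold changes with normal noise of the deposited SEs, which checks the code only. The simulation did not carry the wider robust spread of the real statistics (2.14), so it gives no error rate for these data. Named were all members, YTHDC1, the called genes of further pathway lists (in full for those with a mean of at least 100) and antisense transcripts of members. Some genes that this rule names are not reported here. The members, lists and tests were chosen with earlier results of these data known. Sequences of the siRNAs come from the study's supplement.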

Additional observations from a re-analysis of the deposited data

How the results depend on the processing

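The members' counts of 9 higher and 6 lower were the same at an adjusted p under 0.05, among genes with a mean count of at least 100 or of at least 10, and after subtracting from each fold change the median of well expressed genes (0.01, mean count of 100 or more). With no limit on the fold change 17 members were higher and 12 lower, with a limit of 1 on the log2 scale 1 and 1 (GREM1 and LTBP4), and with a test of a change larger than 0.5, 3 and 2. A Wald statistic scaled down by its robust spread (2.14) left 6 and 4. Over all genes, beside 689 higher and 836 lower, these settings gave 1184 and 1309 (adjusted p under 0.05), 2061 and 2040 (no limit), 262 and 277 (limit of 1), 124 and 155 (change larger than 0.5), 341 and 459 (mean of at least 100) and 170 and 202 (robust spread). Centring turned the sign of 1 member, ACVR1, to -0.0066, and changed no call. No paired analysis was possible because the deposited table has no column per library, and leaving out each replicate in turn was not run for the same reason. Depth limits what can be seen in INHBA, SNAI2, TGFB3 and BMP2, the 4 members with a mean count under 100.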
